A study of Mus musculus with 9 samples.

Results

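The tumour suppressor p53 is a transcription factor that raises a set of target genes when DNA or metabolism is disturbed, and 10 of these targets were followed in mouse liver. They are Cdkn1a, Mdm2, Ccng1, Bax, Bbc3, Phlda3, Sesn1, Eda2r, Trp53inp1 and Tnfrsf10b. A gene counted as measured through the probes that carry its name on the array, which gave 19 probes for the 10 genes. The 10 genes were picked by name with earlier results of the same comparisons in view, so their values are given as a description and nothing is read from how many of them changed. Of the 10 genes, 8 had a probe bright enough to be tested, among 17636 genes and other features tested in all.

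Male C57bl/6J mice, aged 16 weeks when sampled, had been fed for 12 weeks. Control chow was the food of the chow group. Mice in the HFD group were given a high-fat diet with 60% of its energy from fat. The HFD+APS group ate that same high-fat diet with 40 g of Astragalus polysaccharides (APS), a plant polysaccharide preparation, mixed into each kg. The study held 24 mice, and the 3 livers per group put on arrays were chosen with regard to their histology and triglyceride measurement, so they are not a random draw from each group. The groups share strain, sex, age and duration, and no group received APS without the high-fat diet. Each liver gave 1 array, so n = 3 per group. The series is about APS in the prevention and treatment of fatty liver, and the comparisons ask how the high-fat diet shifted these genes and how their levels differed when APS was in the diet.

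As background, p53 is kept low in unstressed cells because Mdm2, itself a p53 target, marks it for destruction. When p53 accumulates it binds DNA at paired copies of a short decamer, the half-site. It then turns on genes that halt the cell cycle (Cdkn1a), that trigger cell death through mitochondria (Bax, Bbc3) or death receptors (Tnfrsf10b, Eda2r), and that restrain growth signalling (Phlda3, Sesn1). In liver the pathway is known from DNA damage, regeneration and fatty liver.

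The promoters are shown because the genes share a regulator. They are the 250 bases before the start of each gene, from RefSeq on the assembly GRCm38.p6, 5′ to 3′ on the gene's strand, with matches to the p53 half-site consensus in capitals. The Mdm2, Ccng1 and Bax windows and the window of 1 of the 2 Cdkn1a starts each hold a match. The window of the other Cdkn1a start, at chr17:29093519-29093768 and not printed, holds none, nor does the Phlda3 window, shown for contrast.
Cdkn1a: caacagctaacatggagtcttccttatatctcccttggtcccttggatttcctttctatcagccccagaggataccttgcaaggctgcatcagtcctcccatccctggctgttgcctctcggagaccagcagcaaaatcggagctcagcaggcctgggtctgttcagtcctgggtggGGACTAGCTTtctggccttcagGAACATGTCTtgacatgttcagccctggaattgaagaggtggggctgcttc
Mdm2: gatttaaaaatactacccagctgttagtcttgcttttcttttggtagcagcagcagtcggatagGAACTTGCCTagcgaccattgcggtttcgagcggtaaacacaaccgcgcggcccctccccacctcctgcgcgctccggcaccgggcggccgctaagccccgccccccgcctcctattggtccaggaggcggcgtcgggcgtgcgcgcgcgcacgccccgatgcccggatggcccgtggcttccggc
Ccng1: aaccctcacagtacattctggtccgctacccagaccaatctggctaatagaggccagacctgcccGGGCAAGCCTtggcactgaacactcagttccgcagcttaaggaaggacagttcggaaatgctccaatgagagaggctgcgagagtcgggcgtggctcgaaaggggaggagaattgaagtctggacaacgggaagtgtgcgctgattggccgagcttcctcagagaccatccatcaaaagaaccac
Bax: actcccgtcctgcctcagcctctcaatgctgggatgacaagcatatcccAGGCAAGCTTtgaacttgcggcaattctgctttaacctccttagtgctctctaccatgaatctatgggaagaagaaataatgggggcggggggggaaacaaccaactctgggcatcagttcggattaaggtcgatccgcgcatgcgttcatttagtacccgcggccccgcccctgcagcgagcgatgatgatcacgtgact
Phlda3: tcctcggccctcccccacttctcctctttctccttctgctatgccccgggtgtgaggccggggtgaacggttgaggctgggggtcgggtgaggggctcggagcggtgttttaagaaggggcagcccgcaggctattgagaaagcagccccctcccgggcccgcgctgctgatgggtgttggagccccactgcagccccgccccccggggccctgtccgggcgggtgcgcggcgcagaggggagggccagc
These windows lie at chr17:29090729-29090978 (plus strand), chr10:117710759-117711008 (minus), chr11:40755287-40755536 (minus), chr7:45466899-45467148 (minus) and chr1:135765835-135766084 (plus), in that order.

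The half-site consensus, a decamer of 10 bases, is its own reverse complement, so 1 search covers both strands. A match is a stretch of letters and not a measured binding site. Windows were at hand for 8 of the 10 genes, all but Trp53inp1 and Tnfrsf10b, and some genes had more than 1 start, giving 12 windows. Of these, 5 windows in 5 genes held a half-site (Cdkn1a, Mdm2, Ccng1, Bax and a second start of Sesn1). Of all 32851 RefSeq promoter windows of the same length, 7.13% held one. The printed Cdkn1a window, before the upstream of the gene's 2 starts, alone among the 12 held 2 half-sites no more than 13 bases apart. These were GGACTAGCTT and GAACATGTCT, which begin at positions -73 and -51 from that upstream start. That arrangement occurred in 0.0639% of all windows. The single matches were GAACTTGCCT at -186 in Mdm2, GGGCAAGCCT at -185 in Ccng1, AGGCAAGCTT at -201 in Bax and AAGCTTGTTT at -173 in Sesn1. Sites further from the start, or inside the gene, were not searched.

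Signals below are log2 processed intensities minus the array's 75th percentile, so 0 is the level of a probe brighter than 75% of the probes on its array. Each feature is the brightest probe of a gene. Levels of different probes are not compared, because probes differ in brightness. On the mm9 build, the tested probe of Cdkn1a lies at chr17:29237377-29237436, of Mdm2 at chr10:117126278-117126337, of Bax at chr7:52721469-52721624 and of Bbc3 at chr7:16903403-16903462. That of Sesn1 lies at chr10:41628000-41628059 and that of Trp53inp1 at chr4:11101174-11101233. A difference was called when its Benjamini-Hochberg adjusted p, from limma's moderated test over all 17636 features, was under 0.05. The arrays held 45018 spots each, with 61.5% to 68.4% of spots well above background on the chow arrays, 50.4% to 54.1% on the 3 HFD arrays and HFD+APS array 1, and 63.5% to 64.5% on HFD+APS arrays 2 and 3. These 3 sets of arrays are also the 3 slides. Slide and diet therefore cannot be told apart for HFD against chow or for HFD+APS against chow. HFD+APS 1 shares its slide with all 3 HFD livers. Nothing in the labels goes beyond separate livers, so the spread between arrays holds both animal and technical variation.

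The labelled tissue carried its markers: 9 of 10 hepatocyte markers passed the filter on dim probes, with a summed linear signal (75th percentile as 1) of 2460 to 2680 in chow, 2300 to 2640 in HFD and 2270 to 2960 in HFD+APS. The monocyte and lipid-associated macrophage list (6 of 7 passed, Gpnmb did not) summed to 16.4 to 16.5 in chow, 30 to 76.2 in HFD and 16.1 to 27.8 in HFD+APS. The Kupffer cell and macrophage list (11 of 11) summed to 44.2 to 72.8, 78.3 to 117 and 61.1 to 129. Neutrophil markers (3 of 7, with Ngp, Camp, Ltf and Cxcr2 too dim) reached 49.6 in HFD liver 3 and lay between 1.36 and 8.73 in the other 8. Sinusoidal endothelial markers (8 of 8) summed to 33.2 to 52.5 in chow, 61.9 to 73.4 in HFD and 67.4 to 76.8 in HFD+APS. The cholangiocyte list (5 of 6, Cftr too dim) summed to 47.1 in HFD liver 3 and to 5.77 to 8.3 in the other 8. Spp1 is on both this list and the monocyte and lipid-associated macrophage list. In HFD against chow the log2 difference of Spp1 was 1.38. Those of Krt19, Krt7, Sox9 and Epcam were -0.78, -0.38, -0.14 and 0.17, and none of these markers was called. The 1 adipocyte marker that passed, Cfd, with Adipoq, Lep, Plin1 and Retn too dim, lay at 0.0897 to 5.44 in chow, 2.68 to 21.3 in HFD and 0.224 to 0.331 in HFD+APS. Stellate and fibroblast markers (9 of 9) summed to 71.4 to 128, 122 to 150 and 114 to 134. In HFD against chow the single markers called higher were Ly6c2, Trem2, Clec4g, Oit3, Col1a1 and Col3a1, by 1.89, 2.33, 0.80, 0.92, 2.08 and 1.79. Those called lower were the hepatocyte marker Tat, by 0.73, and the lymphocyte marker Cd4, by 0.72. Of the Kupffer cell and macrophage markers 0 of 11 were called, and of the neutrophil markers 0 of 3. The part of these cells in the results below was not tested. In whole liver, a change in the number of cells of a type and a change in RNA per cell cannot be told apart.

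Ccng1, which encodes cyclin G1, a regulator that recruits a phosphatase to Mdm2, showed the tightest separation by diet. Its signal was 0.90, 0.97 and 1.15 in the 3 chow livers, 2.07, 2 and 2.12 in HFD, and 1.05, 1.14 and 1.36 in HFD+APS. Every HFD liver was above every liver of the other groups, and the chow and HFD+APS livers overlapped. Means were 1.01 ± 0.13, 2.07 ± 0.06 and 1.18 ± 0.16 (SD, n = 3 each). Ccng1 rose by 1.06 ± 0.12 (log2 difference ± SE), or 2.08-fold, in HFD against chow. It fell by 0.88 ± 0.12, to a level 1.84-fold lower, in HFD+APS against HFD. HFD+APS minus chow was 0.18 ± 0.12 and was not called. The rise was called under each of the 17 alternatives run, at 0.92 to 1.13. The fall was not called when HFD liver 1 (-0.88), HFD liver 3 (-0.85) or HFD+APS liver 2 (-0.86) was left out. Nor was it called without the filter on dim probes (-0.88). On the slide shared by the HFD livers and HFD+APS liver 1, the difference was -1.01 and was called. Such within-slide values rest on 1 HFD+APS liver, which is assumed to vary like the other groups.

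A second Ccng1 probe, at chr11:40562427-40562486 against chr11:40564413-40564472 for the first (mm9, minus strand), read another stretch of the gene. Its signals were 0.33, 0.34 and 0.34 in chow, 1.27, 1.45 and 1.58 in HFD, and 0.74, 0.85 and 1.08 in HFD+APS. Here too the HFD livers were highest, but the HFD+APS livers lay above the chow livers without overlap. The log2 differences were 1.1 for HFD minus chow, -0.54 for HFD+APS minus HFD and 0.56 for HFD+APS minus chow. The probes thus differed on whether HFD+APS livers were back in the chow range.

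Phlda3 encodes a small protein of a membrane lipid-binding domain that competes with the kinase Akt for its membrane lipids. Its signal was -0.46, -0.95 and -0.41 in chow, 0.86, 0.46 and 1.40 in HFD, and -0.60, -0.84 and -1.24 in HFD+APS. The 3 HFD livers were the highest of the 9, and the chow and HFD+APS livers overlapped. Means were -0.61 ± 0.30, 0.91 ± 0.47 and -0.89 ± 0.32 (SD, n = 3 each). Phlda3 rose by 1.51 ± 0.27, or 2.86-fold, in HFD against chow, and fell by 1.80 ± 0.27, to a level 3.48-fold lower, in HFD+APS against HFD. HFD+APS minus chow was -0.29 ± 0.27, not called. The rise was not called without chow liver 2 (1.34). The fall was not called without chow liver 3 (-1.80), HFD liver 1 (-1.82), HFD liver 3 (-1.56), HFD+APS liver 2 (-1.83) or HFD+APS liver 3 (-1.63). Nor was it called without the filter on dim probes (-1.80) or with replicate number as a block (-1.80). Within the shared slide, with its 1 HFD+APS liver, the difference was -1.51 and was not called. The single Phlda3 probe lies at chr1:137665642-137665701 (mm9).

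**Figure D1:**
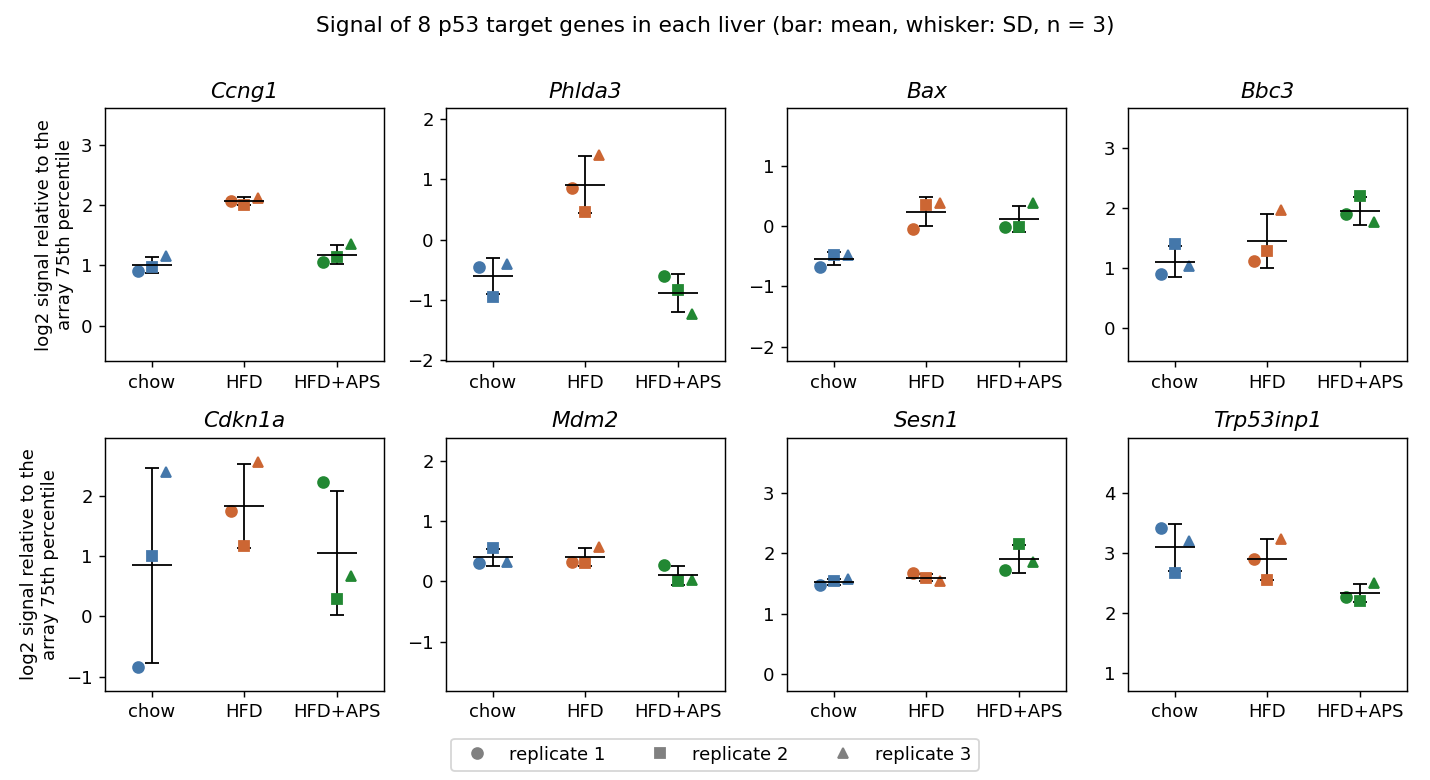
Signal of the 8 detected p53 target genes in each liver, as log2 intensity relative to the array's 75th percentile, with every panel spanning the same number of log2 units. Points are livers, bars are group means and whiskers are SD (n = 3). Ccng1 and Phlda3 are highest in all 3 HFD livers, Bax is lowest in all 3 chow livers, and the Cdkn1a groups overlap.

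Among the genes of mitochondrial cell death, Bax, whose protein opens the outer mitochondrial membrane, had signals of -0.67, -0.47 and -0.48 in chow, -0.04, 0.36 and 0.39 in HFD, and -0.01, -0.01 and 0.38 in HFD+APS. All 6 livers on the high-fat diet, with or without APS, lay above the 3 chow livers, and HFD and HFD+APS overlapped. Means were -0.54 ± 0.11, 0.24 ± 0.24 and 0.12 ± 0.22 (SD, n = 3 each). Bax rose by 0.78 ± 0.16, or 1.71-fold, in HFD against chow. HFD+APS minus HFD was -0.11 ± 0.16 and HFD+APS minus chow was 0.66 ± 0.16, and neither was called. The rise was not called without any 1 of chow livers 1, 2 and 3 (0.71, 0.81 and 0.81) or HFD livers 2 and 3 (0.71 and 0.70), nor with slide as a random block (0.79). Without the filter on dim probes (0.78) it was not called either. HFD+APS minus chow was called under 2 alternatives, a normexp background correction with quantile normalization (0.51) and a filter that keeps only probes above background on all 9 arrays (0.66). The Bax probe was printed in 10 spots, whose SD within an array was 0.05 to 0.16.

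Bbc3 encodes Puma, which frees Bax and its relatives from their inhibitors. Its signal was 0.91, 1.40 and 1.03 in chow, 1.12, 1.28 and 1.97 in HFD, and 1.90, 2.20 and 1.76 in HFD+APS. The HFD+APS livers were all above the chow livers, whereas HFD overlapped both other groups. Differences were 0.34 ± 0.24 for HFD minus chow, 0.50 ± 0.24 for HFD+APS minus HFD and 0.84 ± 0.24 for HFD+APS minus chow. None was called, and the last was called only when HFD liver 3 was left out (0.84). Without that liver the first was 0.08 and the second 0.76, and without HFD liver 1 the second was 0.33.

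Cdkn1a encodes p21, the inhibitor of cyclin-dependent kinases and the best-known p53 target. Its signal was -0.84, 1.01 and 2.39 in chow, 1.75, 1.17 and 2.57 in HFD, and 2.23, 0.28 and 0.67 in HFD+APS. The groups overlapped in every comparison, and the chow livers alone spanned the range from the lowest of the 9 to the second highest. Means were 0.85 ± 1.62, 1.83 ± 0.70 and 1.06 ± 1.03 (SD, n = 3 each). The 10 spots of the probe on each array agreed to an SD of 0.03 to 0.07, so the spread lay between arrays and not between spots. HFD minus chow was 0.97 ± 0.83, HFD+APS minus HFD -0.77 ± 0.83 and HFD+APS minus chow 0.21 ± 0.83, none of them called. HFD minus chow was 0.13 without chow liver 1 and 1.74 without chow liver 3. Within the shared slide, where HFD+APS is 1 liver, HFD+APS minus HFD turned to 0.41. HFD+APS minus chow turned to -0.64 without chow liver 1 and to -0.38 without HFD+APS liver 1.

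**Figure D2:**
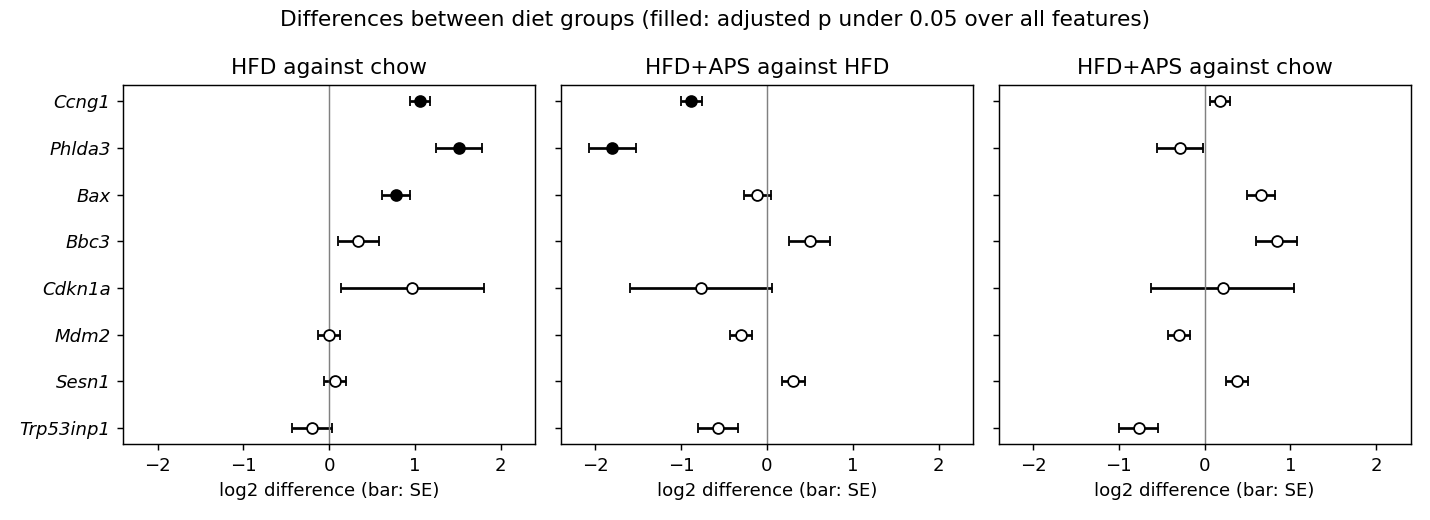
Log2 differences between groups for the 8 genes, with bars for SE and filled points for differences called over all 17636 features. Phlda3, Ccng1 and Bax are called in HFD against chow, Phlda3 and Ccng1 in HFD+APS against HFD, and none in HFD+APS against chow. The comparisons share groups and are not independent.

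Mdm2, the ligase that removes p53, had signals of 0.31, 0.56 and 0.33 in chow, 0.32, 0.30 and 0.57 in HFD, and 0.28, 0 and 0.02 in HFD+APS. The HFD+APS livers lay below both other groups, though by little, since HFD+APS 1 at 0.28 was next to HFD 2 at 0.30. HFD minus chow was 0.00 ± 0.13, and HFD+APS was lower than HFD and chow by 0.30 ± 0.13 each, not called. A second Mdm2 probe gave 0.10, -0.23 and -0.13 for the same 3 differences.

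Sesn1 encodes sestrin 1, a stress protein that restrains mTORC1. Its signal was 1.48, 1.54 and 1.58 in chow, 1.67, 1.60 and 1.55 in HFD, and 1.72, 2.16 and 1.86 in HFD+APS. All 3 HFD+APS livers were above the other 6. Differences were 0.07 ± 0.13, 0.31 ± 0.13 for HFD+APS minus HFD and 0.38 ± 0.13 for HFD+APS minus chow, none called. A second probe gave 0.10, 0.55 and 0.66 for the 3 comparisons. Another, dim probe was well above background on 3 chow, 0 HFD and 2 HFD+APS arrays, and the mean of the probes turned HFD minus chow to -0.24.

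Trp53inp1 encodes a nuclear protein that promotes p53 activity and autophagy. Its signal was 3.42, 2.67 and 3.19 in chow, 2.90, 2.55 and 3.23 in HFD, and 2.27, 2.2 and 2.5 in HFD+APS. The HFD+APS livers were the lowest 3 of the 9. Means were 3.09 ± 0.39, 2.89 ± 0.34 and 2.33 ± 0.15 (SD, n = 3 each). Differences were -0.20 ± 0.23 for HFD minus chow, -0.57 ± 0.23 for HFD+APS minus HFD and -0.77 ± 0.23 for HFD+APS minus chow, none called. A second probe gave -0.30, -0.50 and -0.80.

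**Figure D3:**
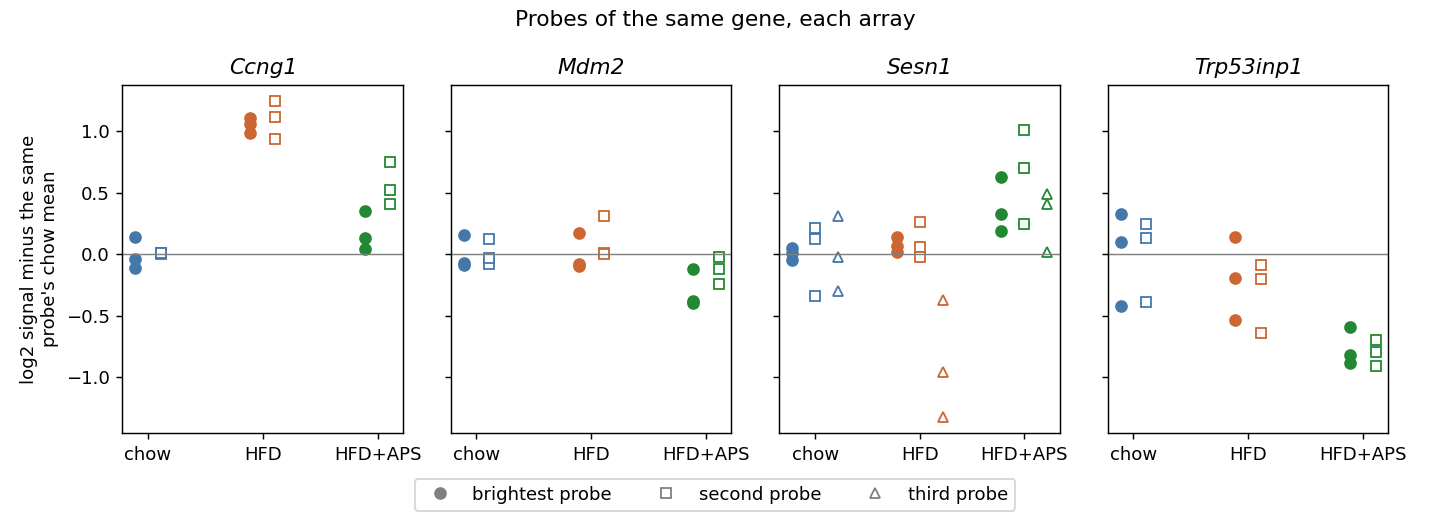
Signals of the 4 genes with more than 1 detected probe, each minus that probe's chow mean on the log2 scale. Filled circles are the brightest probe and open symbols the others, with 1 point per array. The Ccng1 probes are both high in HFD and differ in HFD+APS, and the Sesn1 probe drawn as triangles is low in the HFD livers, where it was not well above background.

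The death receptors were not measurable. Eda2r and Tnfrsf10b, which bind a ligand of the ectodysplasin family and the ligand TRAIL, have 3 probes each, and none of the 6 was well above background on any of the 9 arrays. No level or fold is given for them, and their expression below that limit was not detectable here.

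For HFD against chow, 3 of the 8 tested genes were called higher and 0 lower. Over all features, 10.9% were called in that comparison and 4.55% were called higher. The groups did not overlap for the same 3 of 8 genes, against 38.9% of all features. For HFD+APS against HFD, 2 of 8 were called, both lower, where 1.5% of all features were called and 1.03% were called lower. The groups did not overlap for 5 of 8, 1 higher and 4 lower, against 24.5% of all features. For HFD+APS against chow, 0 of 8 were called and 4 had an unadjusted limma p under 0.05, while 3.47% of all features were called and 25.2% had such a p. The groups did not overlap for 5 of 8, 3 higher and 2 lower, against 30.9% of all features. The median differences of the 8 genes were 0.56, -0.43 and 0.19, and those of all features -0.039, 0.001 and -0.032. By array, HFD liver 3 held the highest signal for 5 of the 8 genes and chow liver 1 the lowest for 5. How often these 2 arrays were the extremes over all features was not counted, so nothing particular to these genes is read from it. HFD liver 3 also had the highest marker sums of the 9 livers for neutrophils (49.6), cholangiocytes (47.1) and monocytes and lipid-associated macrophages (76.2). The last 2 lists share Spp1, so their sums are not separate signals. Without HFD liver 3, Ccng1, Phlda3 and Bax were 1.03, 1.27 and 0.70 higher in HFD than in chow on the log2 scale, the last no longer called.

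The wider pathway was read from lists that were drawn up by what the genes are known to do. Earlier results of these data were known when the lists were drawn up, so their counts are a description. A list of 50 other p53 targets had 47 tested members (Ak1, Dram1 and Ptprv were too dim). In HFD against chow, 8 were called higher and 2 lower, which is 21.3% of the list against 10.9% of all features, and 37 were not called, with a median difference of 0.20. Psrc1, a spindle protein gene, was called higher in HFD, with a fitted difference of 2.4 ± 0.32. It was well above background on 2 of 3 HFD arrays, 1 HFD+APS array and no chow array. It thus passed the filter mostly through HFD, and nothing is read from its call. The mean of the 3 HFD arrays was 3.39-fold above the lowest chow signals called above background. That mean includes an HFD array not well above background, so the value is approximate and not a strict lower bound. Triap1, an inhibitor of apoptosis, rose by 0.81 ± 0.12 (adjusted p = 0.0105), from 1.34, 1.18 and 1.55 to 2.18, 2.16 and 2.14. Abhd4, a lipid hydrolase, rose by 0.54 ± 0.09 (adjusted p = 0.0129). Gls2, the liver glutaminase, went the other way and fell by 0.70 ± 0.13 (adjusted p = 0.0182), a call that ended without chow liver 2, chow liver 3 or HFD liver 3. Beyond these 4, and named after their values were seen, Ckap2, Sulf2, Aen, Ctsd and Zmat3 were called higher, by 1.15, 0.68, 0.68, 0.59 and 0.59, and Fbxw7 lower, by 0.50. Each of these 6 calls was kept in 1 to 5 of the 9 fits that left out 1 array. The list's count of 10 became 5, 3 or 3 without chow liver 1, 2 or 3, 6, 5 or 3 without HFD liver 1, 2 or 3, and 4 with slide as a random block.

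With APS added to the high-fat diet (HFD+APS against HFD), 0 of the 47 other targets were called higher and 2 lower. That is 4.26% of the list against 1.5% of all features, with a median of -0.20. An unadjusted limma p under 0.05 was reached by 11 of the 47 and by 17.9% of all features. Psrc1 was called lower. Its signals were -2.97, -2.42 and -1.85 in HFD, where 2 of 3 arrays were well above background. They were -4.55, -4.98 and -4.18 in HFD+APS, where 1 of 3 was. Psrc1 passed the filter mostly through HFD, so nothing is read from this call. The fitted difference was -2.16 ± 0.32, and its size is uncertain because most of the HFD+APS signals were at background. Zmat3, an RNA-binding protein gene, fell by 0.70 ± 0.13 (adjusted p = 0.0481). The Zmat3 call ended when any 1 of the 9 arrays was left out. The Psrc1 call ended without chow 3, HFD 2, HFD 3, HFD+APS 2 or HFD+APS 3. Aen, an exonuclease gene, was at 1.08, 1.15 and 1.36 in HFD and 0.65, 0.35 and 0.61 in HFD+APS, a difference of -0.66 ± 0.14 that was not called (adjusted p = 0.0604). Gdf15, which encodes a stress hormone, gave -1.45 ± 0.32, also not called (adjusted p = 0.0677). The count of 2 became 1 without chow 1, chow 2 or HFD 1, and 0 without chow 3, HFD 2, HFD 3, HFD+APS 2 or HFD+APS 3. With slide as a fixed block, which leaves 1 HFD+APS liver to compare, 0 of the 47 were called.

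When HFD+APS was set against chow, 0 of the 47 were called higher and 2 lower, 4.26% of the list against 3.47% of all features. The median was 0.05. An unadjusted limma p under 0.05 was reached by 8 of the 47 and by 25.2% of all features. Fbxw7, a ubiquitin ligase subunit, fell by 0.70 ± 0.13 (adjusted p = 0.033), and Pidd1, which encodes a p53-induced death domain protein, fell by 1.11 ± 0.23 (adjusted p = 0.0419). Other probes of these genes did not show the change, at -0.02 and -0.01. Leaving out any 1 of 6 arrays ended the Fbxw7 call and any 1 of 8 arrays the Pidd1 call.

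Upstream of the targets, Trp53, which encodes p53 itself, was at 1.51, 1.40 and 1.29 in chow, 1.07, 0.74 and 0.42 in HFD, and 0.95, 0.43 and 0.48 in HFD+APS. All chow livers lay above all livers on the high-fat diet. The differences were -0.65 ± 0.20 for HFD minus chow (adjusted p = 0.0679), -0.12 for HFD+APS minus HFD (adjusted p = 0.781) and -0.78 ± 0.20 for HFD+APS minus chow (adjusted p = 0.0646), none of them called. Its other detected probe gave -0.31, 0.19 and -0.12 for the same 3 differences. The p53 protein was not measured.

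A list of 50 p53 regulators and cell death partners had 45 tested members (Cdkn2a, Chek1, Chek2, Eda and Trp63 were too dim). In HFD against chow, 4 were called higher and 3 lower, 15.6% of the list against 10.9% of all features, with a median of 0.07. Cdkn1c, a kinase inhibitor of the p21 family, rose by 0.51 ± 0.10 (adjusted p = 0.0219). Bak1, the partner of Bax, rose by 0.64 ± 0.12 (adjusted p = 0.0179) while its other probe gave -0.21. Bmf, a death-promoting relative of Bbc3, fell by 1.48 ± 0.30 (adjusted p = 0.0243) while its other probe gave 0.81, so the direction of Bak1 and Bmf depends on the probe. The Cdkn1c call ended without any 1 of 5 arrays, the Bak1 call without any 1 of 4 and the Bmf call without any 1 of the 3 chow arrays. Named after their values were seen, Trp73 and Mdm4, a relative of p53 and a partner of Mdm2, fell by 0.95 and 0.48, and Sesn3 rose by 0.45. Among the probes of Mdm4 the differences ran from -0.64 to 0.01, and among those of Sesn3 from -0.34 to 0.45. These 3 calls were kept in 2 to 4 of the 9 fits that left out 1 array. The list's count of 7 became 2, 1 or 1 without chow liver 1, 2 or 3, 2 without HFD liver 2 or 3, and 4 with slide as a random block.

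For HFD+APS against HFD, 0 of these 45 were called by limma, against 1.5% of all features, with a median of 0.02. An unadjusted limma p under 0.05 was reached by 8 of the 45 and by 17.9% of all features. Kat5, an acetylase of p53, had the smallest p, at a difference of 0.47 (adjusted p = 0.069). In HFD+APS against chow, 1 was called higher and 0 lower, 2.22% of the list against 3.47% of all features, with a median of 0.11. There, 15 of the 45 had an unadjusted limma p under 0.05, against 25.2% of all features. Ep300, an acetylase and coactivator of p53, gave -0.44 ± 0.11 in that comparison and was not called (adjusted p = 0.057).

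Cell cycle genes are held down by p21, and 24 of 30 on a list of them were tested (Aurkb, Bub1b, Ccnb1, Cdc25c, Cdk1 and Cenpf were too dim). Their direction in these data was known when the list was drawn up. In HFD against chow, 11 were called higher and 0 lower, 45.8% of the list against 10.9% of all features, with a median of 0.96. In HFD+APS against HFD, 0 were called higher and 10 lower, 41.7% of the list against 1.5% of all features, with a median of -1.15. Cdc20, which activates the anaphase ligase, rose by 3.17 ± 0.33 (adjusted p = 0.00367), and Ccnb2, a mitotic cyclin, rose by 2.04 ± 0.21 (adjusted p = 0.00375). Between HFD and HFD+APS, Ccnb2 fell by 2.1 ± 0.21 (adjusted p = 0.00908) and Ccne1, the cyclin of the step into DNA replication, fell by 1.75 ± 0.18 (adjusted p = 0.01). The 11 calls became 7 without chow liver 2. The 10 calls became 5, 5 or 4 without chow liver 1, 2 or 3, 4 without HFD liver 2 or 3, and 2 without HFD+APS liver 2 or 3. With slide as a fixed block, again with 1 HFD+APS liver, 3 of the 24 were called in HFD+APS against HFD. Against chow, 2 were called, both lower in HFD+APS (Nek2 by 1.09 and Ccne1 by 0.90). That is 8.33% of the list against 3.47% of all features, and the median was -0.11. These calls were kept in 3 and 2 of the 9 fits that left out 1 array.

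**Figure D4:**
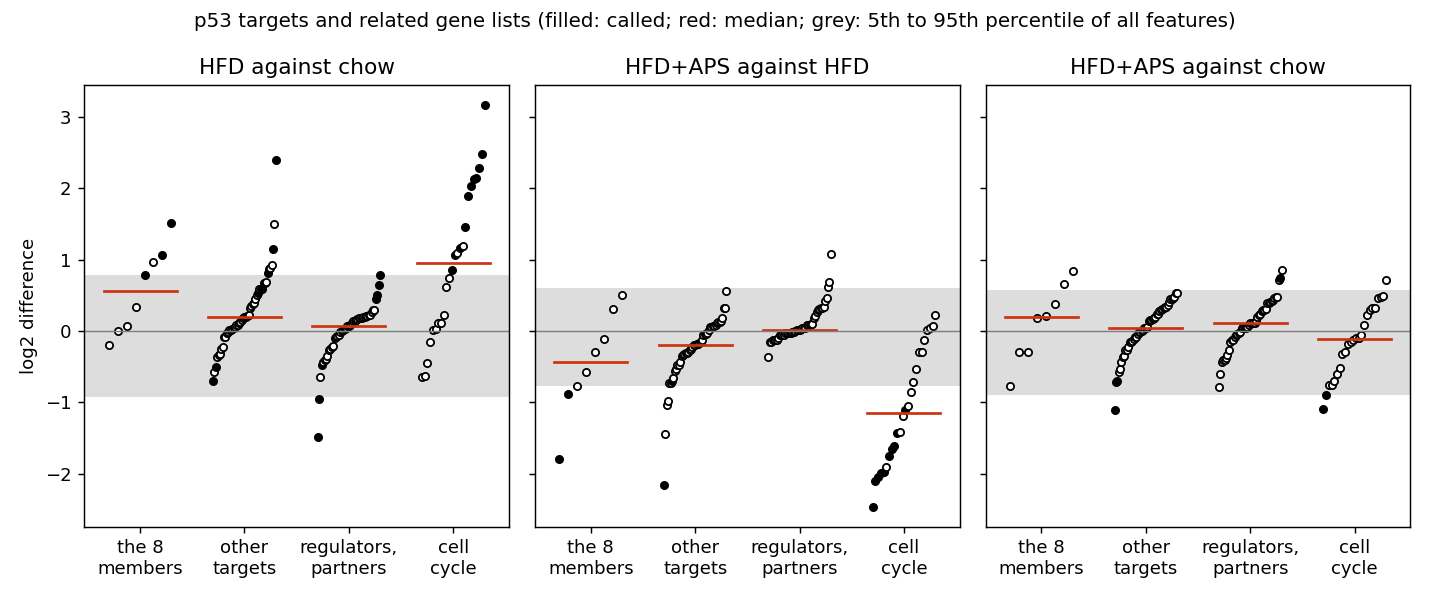
Log2 differences of the 8 genes, 47 other p53 targets, 45 regulators and cell death partners and 24 cell cycle genes in the 3 comparisons. Points are genes, filled where called, red lines are list medians and the grey band holds the 5th to 95th percentile of all features. Most of the other targets and regulators lie within the band, and in HFD against chow and HFD+APS against HFD the cell cycle genes reach furthest outside it.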

How the data were processed

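Total RNA from 9 livers was hybridised to 9 Agilent 1-colour arrays. Per the file headers, the authors extracted an intensity per spot with Feature Extraction (10.7.1.1, and 10.7 in the submitters' processing notes), background-subtracted and not normalised between arrays. The deposited series table is on the log2 scale, and it correlated at 0.9969 or more with each array's log2 processed signal. Its column medians were 4.98 to 5, and its normalization step is not given in the sources used here. Limma is also listed in those notes, with no role given.

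Spots flagged as non-uniform or population outliers (49 to 118 per array) were left out here, replicate spots averaged to 41174 probes and the 75th percentile subtracted. Probes well above background on at least 3 of 9 arrays were kept (26477), with the brightest probe per gene (17636 features). Names came from RefSeq (GRCm38): 27668 probes matched by accession, 5589 by symbol and 471 by synonym, and 7446 kept the file's name. Probe coordinates are mm9, per the file headers, and exonic or intronic placement of the probes was not assessed. Limma 3.58.1 in R 4.3.3 fitted all 9 arrays at once, with 6 residual and 2.2 prior degrees of freedom. The 3.39-fold value of Psrc1 sets the HFD mean against each chow array's detection floor, its lowest signal well above background. The number of arrays limits the precision. The fitting code was tested on simulated data.

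The members and gene lists were chosen with earlier results of these data known. Named were all 10 members, Trp53, and up to 4 genes per list and comparison with the smallest p, a subset of which is described, while genes named beyond the rule are said to be so. Results of 1 list gene are not reported here. Alternatives changed the background correction, normalization, source table, filter, probe choice, slide or replicate block, and left out each array in turn.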

Additional observations from a re-analysis of the deposited data

How the results depend on the processing

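The 8 members kept their direction under 17 or 18 alternatives, except Cdkn1a in HFD+APS against HFD with slide as a fixed block (0.41), Cdkn1a in HFD+APS against chow (-0.64 to 0.98 as arrays were left out in turn, with chow 1 and HFD+APS 1 turning it to -0.64 and -0.38), Sesn1 in HFD against chow with probes averaged (-0.24), and Mdm2 in HFD against chow, which lay at -0.09 to 0.08. The causes were not tested, beyond what each alternative changes by construction. Groups of 3 arrays limit what can be called, and slide cannot be told apart from chow.

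Counts below are features called for HFD over chow, then HFD+APS over HFD, then HFD+APS over chow. All features gave 1927, 265 and 612. Without the filter on dim probes they gave 798, 79 and 221, and with slide as a random block 684, 164 and 158. Leaving out 1 array gave 365 to 2711, 51 to 578 and 21 to 1609. The share of calls that were higher in HFD+APS than in HFD was 31.7%, and 60.3% with slide as a fixed block. In HFD+APS against chow it was 27.6%, against 37.7% under normexp, 39.9% with the filter on all 9 arrays and 15.4% without a filter, and it was 4.76% without chow 2, 6.94% without HFD+APS 3 and 8.7% without HFD+APS 2. The members gave 3, 2 and 0 calls, with 1 to 3, 0 to 2 and 0 to 1 as arrays were left out. In HFD+APS against HFD they gave 0 without the filter and 1 with slide as a fixed block, and in HFD+APS against chow 1 under normexp and 1 with the filter on all 9 arrays. The other p53 targets gave 10, 2 and 2 calls, with 3 to 12, 0 to 2 and 0 to 4 as arrays were left out. Without the filter they gave 4, 0 and 0, with slide as a random block 4, 1 and 0, and with slide as a fixed block, which compares 1 HFD+APS liver, 0 in HFD+APS against HFD. Quantile normalization and the deposited table gave 1 and 1 in that comparison, and in HFD+APS against chow the filter on all 9 arrays gave 4 and averaged probes 0. The regulators gave 7, 0 and 1 calls, with 1 to 8, 0 and 0 to 5 as arrays were left out. In HFD against chow they gave 3 without the filter and 4 with slide as a random block, and in HFD+APS against chow 4 under normexp, 5 with the filter on all 9 arrays, and 0 without the filter, with averaged probes or with slide as a random block. The cell cycle genes gave 11, 10 and 2 calls, with 7 to 13, 2 to 9 and 0 to 2 as arrays were left out. In HFD+APS against HFD they gave 5 without the filter and 3 with slide as a fixed block, and in HFD+APS against chow 0 under normexp, quantile normalization, the deposited table, no filter or slide as a random block.

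Same-numbered arrays did not deviate together (correlations of -0.17 to 0.16). These are deviations from means of 3 arrays, so they cannot exclude that the livers were paired by number. With a replicate block, all features gave 1321, 82 and 296 calls and members 3, 1 and 0 (Phlda3 was no longer called in HFD+APS against HFD). With that block the other targets gave 0 and 0 in the comparisons with HFD+APS, the regulators 0 in HFD+APS against chow and the cell cycle genes 1.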
